A study of Homo sapiens with 6 samples.

Results

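Notch ligands, receptors and direct target genes were followed in AZ-521 cells, a human line labelled as gastric cancer and held by cell banks as a duodenal carcinoma line. The set holds 10 of the 58735 genes in the table. They are the ligand genes DLL1, DLL3, JAG1 and JAG2, the receptor genes NOTCH1, NOTCH2 and NOTCH3, and the target genes HES1, HEY1 and NRARP. The set was chosen from the rise of DLL1, which had rank 17 among 13579 genes tested, and the other 9 genes were taken for their roles in the pathway. The values of DLL1 are therefore a description with no test. Cells without any engineered change (genotype WT in the labels) had received 10 µM platycodon D (PD), a saponin from roots of Platycodon, or the solvent DMSO for 48 h. There were 3 samples in each group, and polyadenylated RNA was sequenced. The labels do not say whether samples of a group were separate cultures, so the spread behind each p-value is that between these samples and may be technical.

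Notch signalling passes between touching cells. Ligands of the Delta-like and Jagged types on a sending cell bind Notch receptors on a receiving cell, which are then cut by ADAM proteases and by gamma-secretase. The freed intracellular domain enters the nucleus and joins the DNA-binding protein RBPJ to switch on repressors of the HES and HEY families and the feedback inhibitor NRARP. In the gut the pathway keeps progenitors dividing and restrains secretory fates. HES1 is known there as a repressor of ATOH1 and of the Delta-like ligands.

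RefSeq promoter windows (GRCh38.p14, 250 bases before to 50 after the start) were at hand for 7 of the 10 genes. DLL1, DLL3 and HEY1 were not among them. The windows of HES1 and NRARP are shown because these targets of the pathway had differing values below. Capitals mark matches to GTGGGAA, a letter run bound by RBPJ, and to CACGCG, a letter run bound by HES and HEY proteins, on either strand. The HES1 window is chr3:194135898-194136197 on the plus strand and the NRARP window chr9:137302222-137302521 on the minus strand.
HES1: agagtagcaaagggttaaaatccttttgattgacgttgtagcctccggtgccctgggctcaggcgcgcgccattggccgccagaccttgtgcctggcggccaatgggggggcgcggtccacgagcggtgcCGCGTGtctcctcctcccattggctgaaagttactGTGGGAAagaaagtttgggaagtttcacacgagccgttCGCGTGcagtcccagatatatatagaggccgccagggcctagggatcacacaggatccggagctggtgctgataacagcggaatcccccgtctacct
NRARP: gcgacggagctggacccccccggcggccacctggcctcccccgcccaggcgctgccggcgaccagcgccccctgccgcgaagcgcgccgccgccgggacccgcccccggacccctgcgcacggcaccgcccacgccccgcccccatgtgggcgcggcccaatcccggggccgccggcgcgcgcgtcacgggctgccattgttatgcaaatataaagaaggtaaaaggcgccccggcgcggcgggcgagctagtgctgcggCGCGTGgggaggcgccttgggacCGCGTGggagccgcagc
The HES1 window held 1 match to GTGGGAA, on the plus strand 85 bases before the start, and 2 to CACGCG. The NRARP window held 2 matches to CACGCG and none to GTGGGAA. Of all 35116 windows of this length 6.25% held GTGGGAA and 11.4% held CACGCG, and 2.04% held CACGCG at least 2 times. These shares were not matched for GC content. The HES1 window had 59.0% GC and the NRARP window 78.3% (percentile 95.5), beside a median of 58.7% over all windows. GTGGGAA was found in the window of HES1 alone among the 7 genes. CACGCG was also found once each in the windows of JAG1 and JAG2, and 0 of the 7 windows held CACGTG, a run bound by many bHLH proteins. Searches for CAGCTG, bound by proneural factors, and for TGANTCA, bound by AP-1, found 0 of 7 as well. Of all windows 7.26% held CACGTG, while 17.9% held CAGCTG. The AP-1 run was in 7.71%. The runs searched did not overlap each other in the windows printed. These matches describe letters of the exact runs searched, not bound sites. Variants of these runs were not searched, and a link to the differing values was not tested.

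Reads over genes numbered 14915538 to 16341687 per sample. Expression is given as FPKM, fragment counts scaled by gene length and by library size, so that levels can be set side by side between genes. Changes are differences of log2(FPKM + 1), which understate the change of genes near 1 FPKM, with their standard error (SE) or 95% interval from limma. "Rose" and "fell" mean an adjusted p under 0.05 over all genes tested. DMSO replicate 1 and PD replicate 3 stood apart from the rest on the second principal component (18.9% of the variance). Their deviations from the group means correlated downward across genes with transcript GC content (Spearman rho = -0.64 and -0.52). The other libraries went the other way, with rho of 0.46 and 0.54 for DMSO replicates 2 and 3. For PD replicates 1 and 2 rho was 0.61 and 0.02. Results that change without DMSO replicate 1 and PD replicate 3 are given both ways. Of 11 gut epithelial markers, only CDX2 reached 1 FPKM in at least 3 samples and KRT18, KRT19, KRT20 and CDX1 were at 0 in all 6, and 0 of 9 stomach markers reached that level, with TFF1, TFF2, GKN1 and GKN2 at 0. The mesenchymal marker VIM stood at 102 ± 6.03 FPKM in DMSO and 78.0 ± 9.50 FPKM in PD (SD, n = 3), and 4 of 8 mesenchymal markers reached 1 FPKM in at least 3 samples. The epithelial origin in the labels was thus not visible in these markers. The summed level of the 8 mesenchymal markers was 155 to 175 FPKM in DMSO and 124 to 141 FPKM in PD, and that of 5 neuroendocrine markers was 3.48 to 3.85 and 5.49 to 7.31 FPKM. Leukocyte and endothelial markers summed to at most 0.397 and 0.0686 FPKM in any sample. The part of these shifts in the results below was not tested, and in bulk RNA fewer cells of a type and less RNA per cell cannot be told apart.

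Among the ligands, DLL1 went from the lowest level of the 10 genes in DMSO to rank 5 in PD. DLL1 (ENSG00000198719, chromosome 6, 170282206 to 170306565 on GRCh38, minus strand) encodes a Delta-like ligand that activates Notch on neighbouring cells. It stood at 0.727, 0.945 and 1.05 FPKM in the DMSO samples and at 8.46, 11.3 and 9.62 FPKM in the PD samples, each in replicate order. The groups lay far apart, and the lowest PD sample was above every DMSO sample. Behind these values were 36, 52 and 60 reads in DMSO and 419, 561 and 465 reads in PD. The means were 0.908 ± 0.167 and 9.80 ± 1.44 FPKM (SD, n = 3), a ratio of 10.8. On the log2(FPKM + 1) scale the difference was 2.50. A pseudocount of 0.1 raised it to 3.30, and voom, run on whole reads recovered from the FPKM values, gave 3.41. Of the 10662 protein-coding genes tested, 11 had a larger difference. DLL1 moved from percentile 3.31 of the levels of tested genes in DMSO to percentile 65.9 in PD. It passed the filter on low values (at least 1 FPKM in at least 3 samples) through its PD samples.

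**Figure D1:**
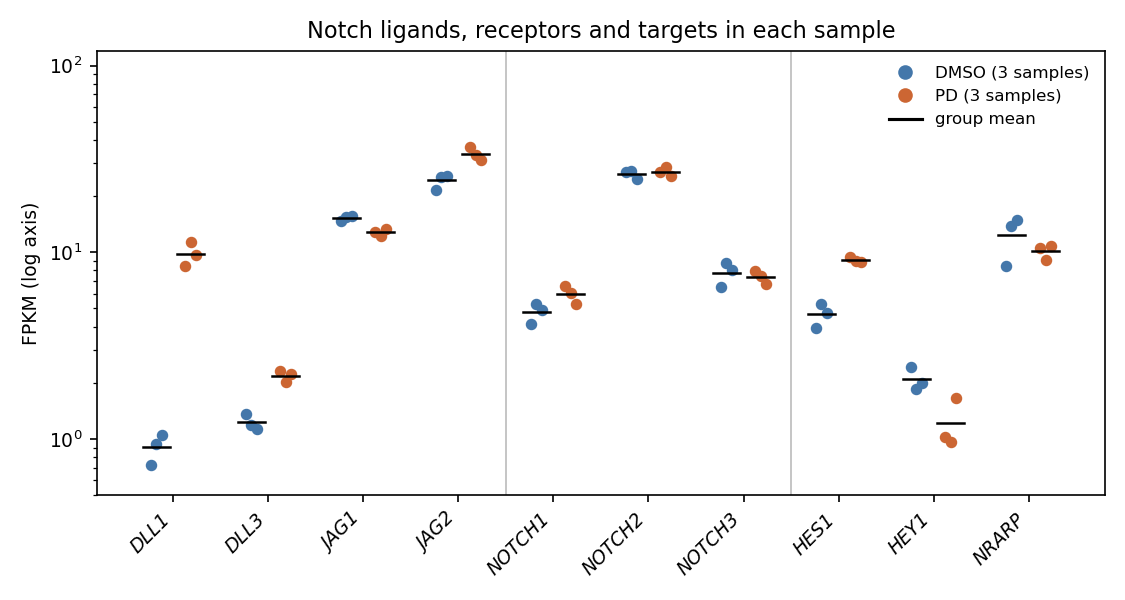
FPKM of the 10 genes (log axis), with each sample as a point, DMSO in blue and PD in orange, and black bars at the group means; vertical lines part ligands, receptors and targets. DLL1 shows the widest gap between groups, from 0.727 to 1.05 FPKM in DMSO and from 8.46 to 11.3 FPKM in PD, while the points of the 3 receptors overlap between groups.

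DLL3, a divergent Delta-like protein that acts mainly inside the sending cell as an inhibitor of Notch, also rose but stayed low. It stood at 1.37, 1.19 and 1.13 FPKM in DMSO and at 2.31, 2.01 and 2.22 FPKM in PD. The groups did not overlap, although only 52 to 55 reads lay behind each DMSO value and 81 to 93 behind each PD value. The log2 difference was 0.52 ± 0.11 (SE, adjusted p = 0.0141). DLL3 did not pass when DMSO replicate 2, DMSO replicate 3 or PD replicate 1 was left out (adjusted p = 0.0528, 0.0561 and 0.0532). Nor did DLL3 pass with a replicate block, which adds a term for replicate number to the fit (0.0556).

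The Jagged ligands, which were the most abundant ligand genes, moved in opposite directions. JAG2 was at 21.6, 25.4 and 25.7 FPKM in DMSO and at 36.5, 33.1 and 31.2 FPKM in PD, with no overlap of the groups. It rose by a log2 difference of 0.46 ± 0.10 (adjusted p = 0.0178). JAG2 did not pass with equal totals or quantile scaling (0.0919 and 0.0511) or with the replicate block (0.0798). Nor did it pass without PD replicate 1 or 2 (0.0621 and 0.0612). JAG1 was at 14.7, 15.5 and 15.5 FPKM in DMSO and at 12.9, 12.2 and 13.3 FPKM in PD. Its groups did not overlap either, with PD the lower, but the difference of -0.24 ± 0.08 did not pass (adjusted p = 0.0647). It passed with equal totals, quantile and upper quartile scaling and GC correction (0.0103, 0.0416, 0.0411 and 0.0145), and without DMSO replicate 1 and PD replicate 3 together (-0.29, adjusted p = 0.0317). The direction of both Jagged genes was the same under all 3 other scalings.

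The makeup of the ligand transcripts shifted with these values. DLL1 made up 1.89%, 2.20% and 2.42% of the summed FPKM of the 4 ligand genes in the DMSO samples, in replicate order, and 14.1%, 19.3% and 17.1% in the PD samples. JAG1 made up 36.7% ± 1.35 in DMSO and 22.0% ± 1.53 in PD (SD, n = 3), and JAG2 58.2% ± 1.61 and 57.5% ± 2.82. JAG2 thus remained the main ligand transcript in all 6 samples, and DLL1 came close to JAG1 in PD. The sum itself was 41.6 ± 2.77 FPKM in DMSO and 58.4 ± 1.91 FPKM in PD. A share falls when another ligand rises, and the shares of this paragraph rest on DLL1, so they are a description. The fifth canonical ligand gene, DLL4, stood at 0.682 ± 0.0753 and 0.893 ± 0.327 FPKM and did not pass the filter on low values.

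**Figure D2:**
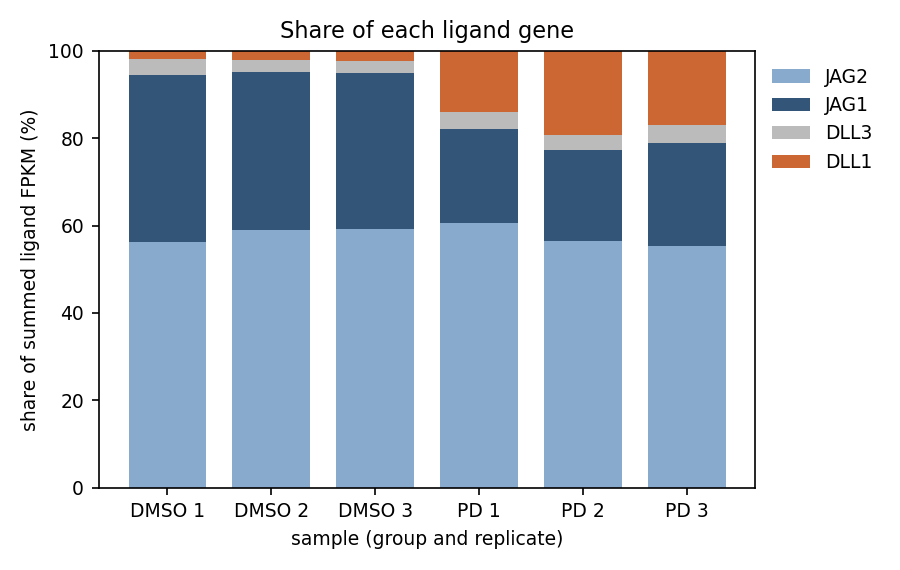
Share of each ligand gene in the summed FPKM of DLL1, DLL3, JAG1 and JAG2 (percent, from 0 to 100), with 1 bar per sample. The DLL1 segment is 1.89% to 2.42% in the DMSO samples and 14.1% to 19.3% in the PD samples, and the JAG1 segment is narrower in PD.

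The receptor genes did not pass the test. NOTCH2 was the most abundant, with 26.9, 27.2 and 24.7 FPKM in DMSO and 27.0, 28.4 and 25.5 FPKM in PD, and the groups overlapped throughout. Its difference was 0.04 with a 95% interval from -0.16 to 0.24 (adjusted p = 0.779), and it turned negative under equal totals and quantile scaling and without DMSO replicate 3. NOTCH2 has near-identical partial copies in the genome, so its reads may be shared with them, and the annotated copy NOTCH2NLA stood at 0.175 ± 0.0358 and 0.0985 ± 0.0356 FPKM. NOTCH3 was at 6.53, 8.73 and 8.03 FPKM in DMSO and at 7.94, 7.48 and 6.80 FPKM in PD. The interval of its difference ran from -0.33 to 0.22 around -0.05 (adjusted p = 0.772), and the difference turned positive, at 0.03, without DMSO replicate 2. NOTCH1 was at 4.11, 5.28 and 4.92 FPKM in DMSO and at 6.58, 6.05 and 5.27 FPKM in PD. PD was the higher on average, the lowest PD sample lay just below the highest DMSO sample, and the difference of 0.27 (interval reaching 0.55) did not pass (adjusted p = 0.127). After correction for GC content NOTCH1 passed (0.25, adjusted p = 0.0192). NOTCH2 took 67.7% ± 3.42 of the summed receptor FPKM in DMSO and 66.9% ± 1.58 in PD, so the order NOTCH2, NOTCH3, NOTCH1 was the same in both groups.

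The 3 targets did not move alike. HES1 (ENSG00000114315, chromosome 3, 194136145 to 194138732, plus strand), the repressor whose promoter window is printed above, was at 3.95, 5.26 and 4.73 FPKM in DMSO and at 9.41, 8.97 and 8.90 FPKM in PD. All PD samples were above all DMSO samples and close to each other. HES1 rose from 4.64 ± 0.661 to 9.09 ± 0.278 FPKM (SD, n = 3), a log2 difference of 0.84 ± 0.11 (SE, adjusted p = 0.00203). It passed under every alternative run, with differences of 0.70 to 0.97, and without DMSO replicate 1 and PD replicate 3 it stood at 0.77 (adjusted p = 0.00457).

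HEY1 (chromosome 8), a repressor of the related HEY family, had the reverse direction at a low level. It was at 2.42, 1.85 and 2.00 FPKM in DMSO and at 1.03, 0.967 and 1.65 FPKM in PD. The groups did not overlap, but PD replicate 3 lay near the DMSO samples, and 48 to 120 reads lay behind each value. The difference of -0.49 ± 0.15 did not pass (adjusted p = 0.0527). It passed without PD replicate 3 (-0.62, adjusted p = 0.0207), without that sample and DMSO replicate 1 (-0.55, 0.0272), with equal totals (-0.59, 0.0192), with upper quartile scaling (-0.51, 0.0399), with GC correction (-0.50, 0.0351) and with voom (-0.81, 0.023). The adjusted p over all its alternatives ran up to 0.158.

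NRARP, an ankyrin repeat protein that binds the Notch complex and shuts it down, stood at 8.46, 13.9 and 14.9 FPKM in DMSO and at 10.6, 9.12 and 10.9 FPKM in PD. DMSO replicate 1 was the lowest of all 6 samples and the other DMSO samples were the highest, so the groups overlapped. The difference of -0.23 did not pass (interval -0.69 to 0.23, adjusted p = 0.421). Without DMSO replicate 1 it was -0.46 and passed (adjusted p = 0.0226), and without PD replicate 3 as well it was -0.51 (0.0164). NRARP has a GC-rich transcript (67.3%), and after GC correction it was -0.23 and did not pass (0.217).

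**Figure D3:**
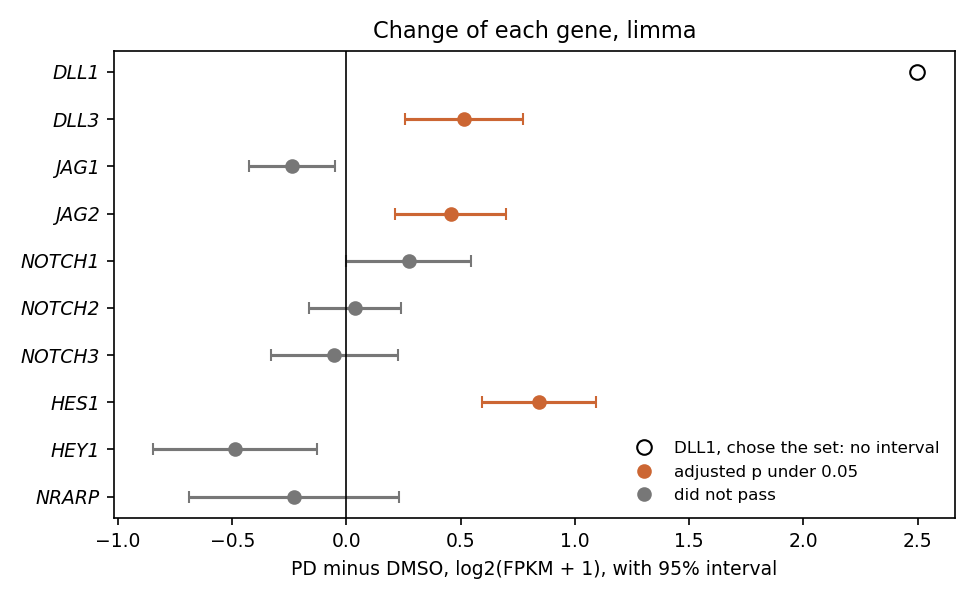
Difference PD minus DMSO of log2(FPKM + 1) for the 10 genes, with 95% intervals from limma; orange points passed at an adjusted p under 0.05, grey points did not, and the open point is DLL1, which chose the set and has no interval. HES1, DLL3 and JAG2 lie to the right of 0, the intervals of the 3 receptors and NRARP include 0, and the points of JAG1, HEY1 and NRARP lie to the left.

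Of the 9 genes other than DLL1, 3 rose and 0 fell, and 0 of these also met the 2-fold minimum that the labels add for a differentially expressed gene (a call, below), with limma as with voom. Of the 6 that did not pass, JAG1 and HEY1 had 95% intervals wholly below 0, which is an unadjusted p under 0.05, and 1 of the 9, HEY1, fell with voom. At an adjusted p under 0.05, 14.3% of all 13579 genes tested rose and 12.7% fell, and 2.84% were called higher and 0.979% lower. The groups did not overlap in 5 of the 9, against 44.4% of all genes tested. The median difference of the 9 was 0.04 and that of all genes 0.001. The set was chosen through this same contrast, so no weight is put on these counts. All 10 genes passed the filter on low values, DLL1 with 4 samples at 1 FPKM or more, HEY1 with 5 and the other 8 with 6. Without DMSO replicate 1 and PD replicate 3, 3 rose and 3 fell, the latter being JAG1, HEY1 and NRARP. In that fit 17.7% of all genes tested rose and 15.9% fell.

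The order of levels within DMSO was NOTCH2, JAG2, JAG1, NRARP, NOTCH3, NOTCH1, HES1, HEY1, DLL3 and DLL1. Neighbours whose samples overlapped in range were NOTCH2 and JAG2, JAG1 and NRARP, NRARP and NOTCH3, and NOTCH1 and HES1, so these are not ordered beyond their spread. In PD the order was JAG2, NOTCH2, JAG1, NRARP, DLL1, HES1, NOTCH3, NOTCH1, DLL3 and HEY1. There NRARP, DLL1 and HES1 overlapped, each with the next in that order.

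Of 83 other genes of the pathway and its partners, listed by role, 82 were matched to the table by symbol and 55 could be tested. The listed symbol NOTCH2NL had no match, although the copy NOTCH2NLA described above was in the table. Of the 55 tested, 6 rose and 9 fell, beside 14.3% and 12.7% of all genes tested, which is near the same share. The median difference of the 55 was -0.09. Among other HES and HEY genes, 1 of 4 tested rose. HES4, a HES repressor that mice lack, was at 18.1, 38.7 and 38.9 FPKM in DMSO and at 82.1, 81.0 and 73.6 FPKM in PD. DMSO replicate 1 was far below the other DMSO samples, and all PD samples were above all DMSO samples. HES4 rose by 1.36 ± 0.27 (adjusted p = 0.0113), by 1.01 without DMSO replicate 1 (0.00129) and by 1.35 after GC correction (0.00102), with a transcript GC content of 73.9%. It had the largest rise of the 55 genes with all samples in, but NUMBL, at 1.04, lay above it without DMSO replicate 1, and at 1.18 against 1.05 without PD replicate 3 as well. HES6, which opposes HES1, stood at 9.45 ± 0.760 and 8.81 ± 0.266 FPKM and HES7, the segmentation clock repressor, at 5.19 ± 1.90 and 7.71 ± 2.23 FPKM, and neither passed (adjusted p = 0.491 and 0.221). HES7 passed without DMSO replicate 1 and PD replicate 3 (0.45, adjusted p = 0.0154). HES5 was at 0 in all 6 samples, and HEY2 and HES2 did not pass the filter (mean of at most 0.801 FPKM in either group).

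**Figure D4:**
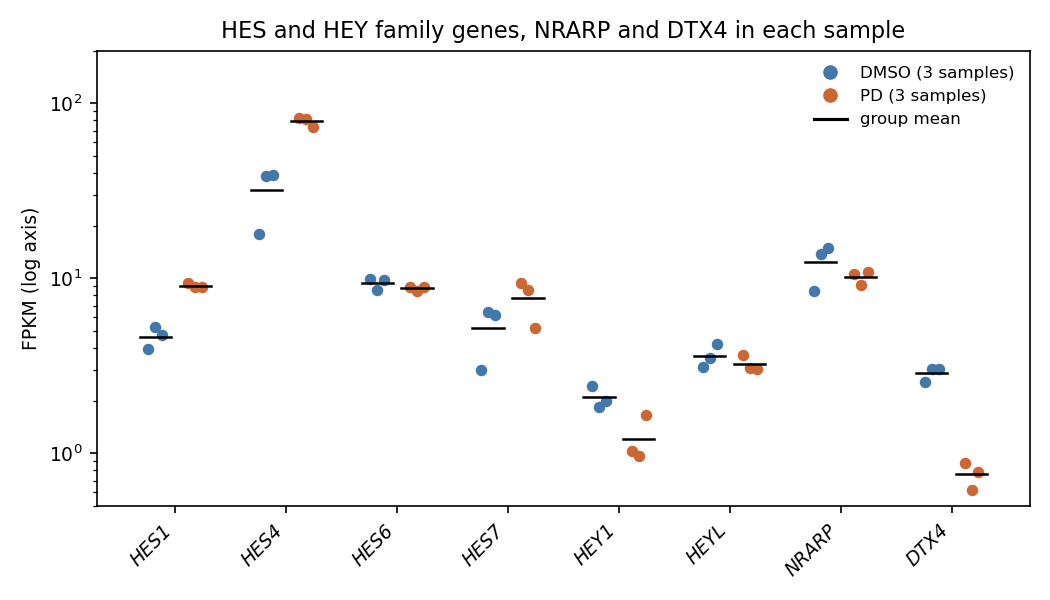
FPKM (log axis) of HES and HEY family genes, NRARP and DTX4 in each sample, DMSO in blue and PD in orange, with black bars at the group means. HES1 and HES4 are higher in all PD samples, and DTX4 is lower in all of them. DMSO replicate 1 (the left blue point of each gene) is the lowest point of HES1, HES4, HES7 and NRARP.

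Genes of turnover and inhibition held a large rise and a large fall, with 1 of 11 tested in each direction. NUMBL, a relative of the Notch inhibitor NUMB, was at 3.41, 4.46 and 4.34 FPKM in DMSO and at 11.4, 11.1 and 8.02 FPKM in PD. It rose by 1.13 ± 0.15 (adjusted p = 0.00248), while NUMB stood at 10.5 ± 0.214 and 11.1 ± 0.798 FPKM (adjusted p = 0.537). DTX4, a Deltex-type ubiquitin ligase acting on Notch traffic, was at 2.55, 3.04 and 3.04 FPKM in DMSO and at 0.879, 0.622 and 0.780 FPKM in PD. It fell by 1.14 on the log2(FPKM + 1) scale (SE 0.12, adjusted p = 0.00101), and with voom the difference was -1.93. DTX4 passed the filter on low values only through its 3 DMSO samples, so it had to differ to be tested, and its p and its place in the count of genes that fell carry no weight. For NUMBL and DTX4 the groups were well apart.

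Among the genes of ligand and receptor handling, DLK2, a Delta-like protein without the domain that activates Notch, was the only one of 5 other ligand and receptor genes found that could be tested, and it fell from 9.98 ± 0.577 to 5.56 ± 0.459 FPKM (adjusted p = 0.00196). RFNG, a Fringe enzyme that lengthens sugars on Notch, fell from 12.6 ± 1.90 to 8.04 ± 1.14 FPKM (adjusted p = 0.022), the only one of 5 tested genes of sugar transfer and maturation to pass. POFUT1, which adds the first fucose, and the protease FURIN stood at 0.03 and -0.04 without passing, and POFUT1 turned negative under all 3 other scalings. MIB2, a ligase that prompts ligand uptake, fell from 6.18 ± 0.746 to 4.51 ± 0.441 FPKM (adjusted p = 0.0438), while its relative MIB1, at 37.2 ± 8.24 and 41.0 ± 3.95 FPKM, and the uptake adaptor EPN1, at 4.25 ± 0.669 and 3.38 ± 0.466 FPKM, did not pass. RFNG did not pass when DMSO replicate 2, DMSO replicate 3 or PD replicate 2 was left out (0.0702 to 0.0745). MIB2 did not pass when any sample but DMSO replicate 1 was left out (0.0735 to 0.14). RFNG and MIB2 also did not pass with no filter (0.065 and 0.1) or with the replicate block (0.0589 and 0.121).

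Among genes of receptor proteolysis, NCSTN, the gamma-secretase subunit that takes up the substrate, rose from 14.7 ± 0.963 to 18.8 ± 1.21 FPKM (adjusted p = 0.0352). It passed in 6 of 16 alternatives, with differences of 0.17 to 0.38. NCSTN did not pass with equal totals (0.177) or without DMSO replicate 1 and PD replicate 3 together (0.0661). It passed in 1 of the 6 fits that each left out 1 sample. ADAM10 and ADAM17, the proteases of the first cut, stood at 14.0 ± 2.16 and 6.33 ± 0.219 FPKM in DMSO and at 13.1 ± 1.28 and 5.29 ± 0.489 FPKM in PD, and neither passed (adjusted p = 0.679 and 0.113). The nuclear complex had 1 rise and 3 falls among 17 tested. The cofactor SNW1 rose by 0.35 (adjusted p = 0.0296), and the acetyltransferases KAT2B and KAT2A and the corepressor NCOR1 fell by 0.69, 0.42 and 0.34 (0.00691, 0.032 and 0.0324). SNW1 passed in 1, KAT2A in 2 and NCOR1 in 1 of the 6 fits that each left out 1 sample, and KAT2B in all of them. With the replicate block SNW1, KAT2A and NCOR1 did not pass (0.102, 0.103 and 0.116), nor with no filter (0.0551, 0.0734 and 0.058). SNW1 also did not pass with equal totals or quantile scaling (0.0923 and 0.0633). RBPJ itself stood at 11.0 ± 1.73 and 12.5 ± 1.85 FPKM (adjusted p = 0.382).

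Of the genes listed as proneural factors, ASCL2, ATOH1, NEUROG1, NEUROG3 and NEUROD1 were at 0 in all 6 samples. The list of these factors and their partners had 6 of 17 tested, of which 1 rose and 2 fell. The ID proteins, which block such factors, made up these 3. ID1 was at 101, 87.0 and 102 FPKM in DMSO and at 35.9, 30.5 and 50.2 FPKM in PD, and fell by 1.32 on the log2(FPKM + 1) scale (adjusted p = 0.00256). ID4 fell by 0.57 (0.00918), and ID3 rose from 109 ± 12.4 to 159 ± 12.0 FPKM (0.0126). ID3 kept its direction but did not pass under quantile scaling (0.0531) or with the replicate block (0.0549).

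**Figure D5:**
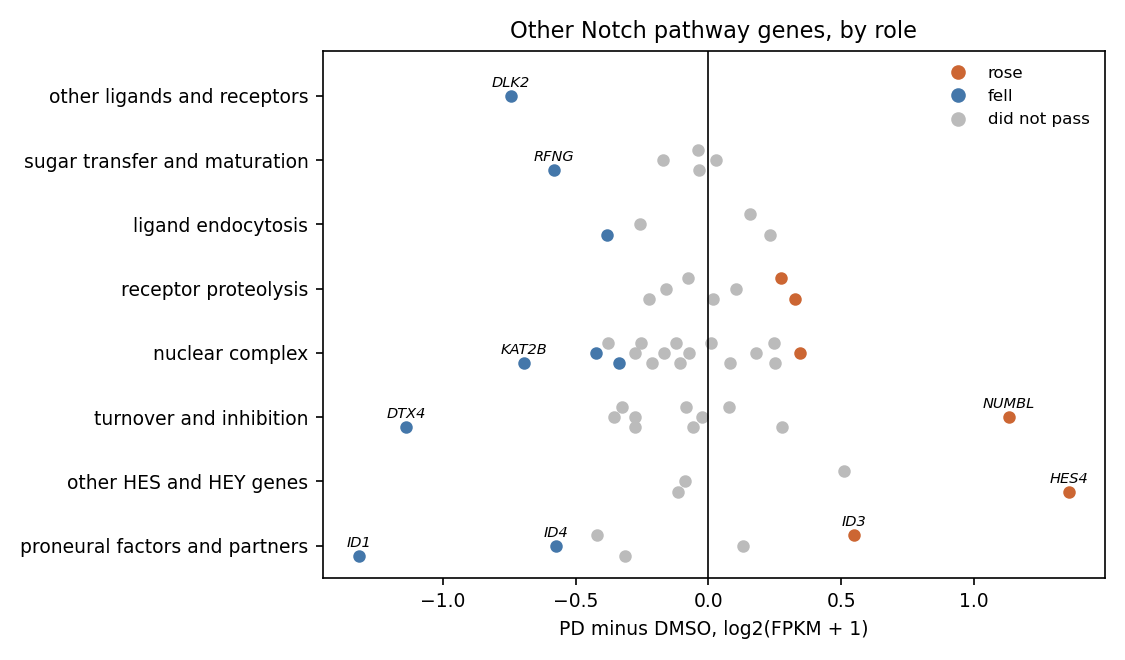
Difference PD minus DMSO of log2(FPKM + 1) for the 55 tested pathway genes, 1 point per gene in 8 rows by role; orange points rose, blue points fell and grey points did not pass. HES4 and NUMBL lie farthest to the right and ID1 and DTX4 farthest to the left, while most genes lie between -0.5 and 0.5.

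The neighbourhood of DLL1 on chromosome 6 held 22 other annotated genes whose middle lay within 500 kb, of which 4 could be tested. FAM120B, on the opposite strand and overlapping DLL1, stood at 4.26 ± 0.197 and 5.22 ± 0.234 FPKM (0.24, adjusted p = 0.0732), and it passed after GC correction (0.0294). The sources used here do not say whether reads were counted by strand, so reads of the overlap cannot be told apart between the genes. AL078605.1, a noncoding gene on the same strand overlapping DLL1, had 0, 0 and 1 reads in DMSO and 9, 5 and 0 in PD. PSMB1, a proteasome subunit, rose from 43.8 ± 1.52 to 70.4 ± 4.49 FPKM (adjusted p = 0.00213), and TBP and PDCD2 stood at -0.35 and -0.23 (0.0535 and 0.0854). TBP passed under equal totals, quantile and upper quartile scaling, GC correction and a mean of at least 5 FPKM (0.0139 to 0.0474), and PDCD2 under the 3 scalings (0.0149 to 0.0495). The other members had no overlapping gene with more than 3 reads in any sample.

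The protein-coding genes whose profile lay nearest to that of DLL1 were CLU, an extracellular chaperone, CHMP1B, an ESCRT subunit, SCD, a fatty acid desaturase, LIF, a cytokine, and UPP1, a uridine phosphorylase. Likeness was the Euclidean distance between log2(FPKM + 1) values minus their mean over the 6 samples, and it was 0.27, 0.28, 0.36, 0.40 and 0.40 for these 5 of 10661 genes compared. Their differences between PD and DMSO were 2.63, 2.41, 2.38, 2.27 and 2.29, beside 2.50 for DLL1. This closeness rests on the pseudocount of 1. With a pseudocount of 0.1 they were 2.74, 2.48, 2.39, 2.32 and 2.31 beside 3.30, and the ratios of mean FPKM were 4.96 to 6.72 beside 10.8. Their levels were higher than that of DLL1 in each group, from 9.94 FPKM for CLU to 211 FPKM for SCD in DMSO. With 2 groups of 3 samples such likeness mostly reflects the size of the difference.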

How the data were processed

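Polyadenylated RNA of 6 samples was sequenced, with a stranded Illumina kit per the labels' protocols. The authors deposited FPKM values per gene, 1 column per sample, matched to samples by group prefix and title number. The sources used here name no aligner or counter. Per the submitters' processing notes the builds were GRCm38 and mm10, which are mouse builds, but all 58735 identifiers are human ones of GENCODE release 29 (GRCh38), whose coordinates are used.

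FPKM times gene length gave whole multiples of 1 step per sample for 100% of values above 0 (tolerance 0.01), so reads per gene were recovered. In the DMSO samples the implied denominators were 1.03, 1.10 and 1.08 times the gene totals, in replicate order. In the PD samples they were 1.00, 0.997 and 0.947 times, and the origin of these ratios is unknown. The groups did not overlap in this ratio, so the offset cannot be told apart from treatment in the differences. Values were taken as log2(FPKM + 1). The 13579 genes with at least 1 FPKM in at least 3 samples entered a limma fit (version 3.58.1, under R 4.3.3) with a trend on mean level and no covariate, two-sided and adjusted by Benjamini-Hochberg over all of them. The fit was tested on simulated data. The members, lists and tests were chosen with earlier results of these data known.

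All 10 members were named. From each list up to 4 genes that passed were named, those with the largest change, or, where fewer than 2 passed, also the 2 with the highest FPKM. NUMB, RBPJ, ADAM10, ADAM17, DLL4, HES2, HES5, HEY2 and the proneural genes at 0 were named after their values were seen. Genes overlapping a member, tested genes within 500 kb of DLL1 and the 5 nearest profiles were named as well. Results of some listed genes are not reported here. The alternatives varied pseudocount, filter, scaling, model, replicate block and samples. The GC correction (loess, span 0.3) was chosen after seeing the data. Figures were drawn with matplotlib 3.10.9.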

Additional observations from a re-analysis of the deposited data

How the results depend on the processing

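HES1 and HES4 kept their direction and passed under all 16 alternatives, and DLL1, for which no test was made, kept its direction. DLK2, NUMBL, ID1, ID4 and PSMB1 also kept their direction and passed under all 16. KAT2B and DTX4 did so in all 15 alternatives that held them. Of the 9 members besides DLL1, 3 rose. With GC correction 4 rose and with the replicate block 1 rose, and fits without each single sample gave 1 to 3. Of all genes tested, 20.7% rose with GC correction, 8.02% with the block and 8.42% to 13.8% without single samples. None fell in the limma fit as described. Of the 9, 2 fell with GC correction, 2 with equal totals, 2 with upper quartile scaling and 1 with quantile scaling. With voom 1 fell, without DMSO replicate 1 and PD replicate 3 it was 3, and all fits with samples left out gave 0 to 3. Of all genes tested, 19.4% fell with GC correction, 23.3% with equal totals, 14.8% with upper quartile scaling and 15.4% with quantile scaling. That share was 15.5% with voom and 15.9% without both libraries. Of the other pathway genes 6 rose and 9 fell. The number that rose was 9 with GC correction, 3 with equal totals, 3 with quantile scaling and 2 with the block, and 3 to 4 without single samples. Besides the shares given above, 9.50% of all genes tested rose with equal totals and 13.5% with quantile scaling. The number that fell was 17 with GC correction, 16 with equal totals, 5 with the block and 14 without both libraries. All fits with samples left out gave 5 to 14. Of all genes tested, 19.4% fell with GC correction, 23.3% with equal totals and 5.56% with the block. That share was 6.33% to 15.9% in the fits with samples left out, with 15.9% without both libraries.

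Over all genes, 1947 rose and 1731 fell. Equal totals gave 1290 and 3158, a mean of at least 5 FPKM 1254 and 960, and the block 1089 and 755. GC correction gave 2807 that rose and 2631 that fell, and no filter 1451 and 1075. Fits with 1 or 2 samples left out gave 1144 to 2402 that rose and 859 to 2156 that fell. Calls with at least 2-fold numbered 386 higher and 133 lower. They were 227 and 77 at a mean of at least 5 FPKM, 626 and 336 with a pseudocount of 0.1, and 667 and 374 with voom, and 248 were lower with equal totals. With equal totals the median over all genes shifted by -0.13 and the share of higher calls went from 74.4% to 53.0%; a pseudocount of 0.1 gave 65.1% and voom gave 64.1%.

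Deviations of same-numbered samples from their group means correlated at -0.39, 0.17 and -0.16. These values cannot show whether replicate numbers pair the samples, because the deviations also followed GC content. For replicate 1 Spearman rho with GC content was -0.64 in DMSO and 0.61 in PD. A count model planned for recovered reads was not run, since the values are FPKM, and voom was used on them alone. DLL3 and HEY1 had no value at a mean of at least 5 FPKM. Read number limits DLL1 in DMSO, DLL3 and HEY1. The causes of these shifts were not tested.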
